A study of Mus musculus with 9 samples.

Results

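Naive CD4+ T cells were taken from the spleens of mice that had received an anti-IL-1b antibody on 10 consecutive days, and their transcripts were compared, across all genes, with those of the same cells from untreated mice. The comparison uses 6 of the 9 libraries of the series, 3 from antibody-treated and 3 from untreated mice, and was set by the treatment labels alone. Of 55487 gene IDs, 13374 were abundant enough to be tested. All mice carried the label WT and the strain label C57BL6/J, and the remaining 3 libraries came from mice given MCC950 for 10 days. The age and sex of the mice, the antibody's clone and dose, the gate used to isolate the cells and any control antibody are not stated in these sources. The untreated group is labelled as having had no treatment, so an effect of antibody injection as such and an effect of blocking IL-1b cannot be told apart.

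IL-1b is an inflammatory cytokine that macrophages, monocytes and neutrophils release after an inflammasome has cut its precursor. It binds the receptor IL1R1, which pairs with the accessory chain IL1RAP, recruits the adaptor MYD88 and the IRAK kinases, and switches on NF-kB and MAP kinases. Naive CD4+ T cells are helper cells before their first encounter with antigen. They recirculate through spleen and lymph nodes in a quiescent state that depends on weak T cell receptor signals, on IL-7 and on factors such as KLF2 and FOXO1.

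Total expected counts, RSEM's estimates of reads per gene, ran from 14775375 to 21394797 over the 9 libraries. Between pairs of libraries of a group the variance was 3.77 to 5.65 times that of counting alone (chi-square per degree of freedom), so none was a copy of another. Nothing in the labels says that they came from separate mice, so p-values reflect library-to-library spread alone, part or all of which could be technical. Levels are CPM, counts scaled by a library's TMM-adjusted total, listed in the order of replicates 1, 2 and 3. Fold changes are on the log2 scale, anti-IL-1b minus untreated, with the standard error (SE) and an adjusted p (edgeR, quasi-likelihood, Benjamini-Hochberg over the 13374 genes). "Higher", "lower", "rose" and "fell" are used for an adjusted p under 0.05. In bulk RNA, fewer cells of a type and less RNA per cell cannot be told apart.

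The libraries held the transcripts that define the cells. Cd4 stood at 859, 839.8 and 851 CPM in the untreated and 911, 899.6 and 899 CPM in the antibody libraries. Cd3e, a chain of the T cell receptor complex, stood at 341, 338 and 345 and 401, 405 and 420.1 CPM. Of the 19 naive CD4 T cell markers, 5 were higher and 7 lower, with a median log2 fold change of -0.01 that became 0.11 when libraries were scaled to their totals alone. Their summed level was 11572, 11478 and 11512 CPM in the untreated and 11234, 11172 and 11146 CPM in the antibody libraries, a small gap in which all 3 antibody libraries were the lower. Trac, the constant region of the T cell receptor alpha chain, fell by 0.17, from 514, 507 and 518 to 457, 456 and 453 CPM, and lost its call with library totals (-0.04).

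Of the IL-1 route itself, Il1b had 0 counts in all 3 untreated libraries, which allows up to 0.0538 CPM over the group (a floor of 3 counts that covers counting error only), and 124, 70 and 104 counts in the antibody libraries. Since the antibody binds the protein, the transcript does not check the treatment. Il1r1, the signalling receptor, had 0 counts in every untreated library and 0, 0 and 4 counts with the antibody, so a change in these cells was not detectable at this depth. Il1rap stood at 17.6, 20.04 and 22.1 and 18.0, 17.5 and 15.2 CPM, with overlapping groups and an adjusted p of 0.128. Downstream of the receptor, the adaptor gene Myd88 went from 78.4, 78.9 and 75.1 to 62.4, 64.6 and 61.9 CPM and the ubiquitin ligase gene Traf6 from 85.5, 85.9 and 94.1 to 70.2, 69.7 and 75.9 CPM. Both were lower in all 3 antibody libraries, by 0.30 and 0.30 on the log2 scale (adjusted p = 7.27e-05 and 6.08e-05). Irak3, which encodes a kinase-dead brake on this pathway, fell by 0.80 from 11.3, 11.5 and 11.9 to 7.74, 5.41 and 6.82 CPM. With TPM values Myd88 kept its call, whereas Traf6 and Irak3 lost theirs (-0.12 and -0.36). The kinase genes Irak1, Irak2 and Irak4 did not pass, at log2 fold changes of 0.09, -0.22 and 0.21.

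Across the list of IL-1 family receptor and inflammasome genes, 2 of 19 tested members rose and 7 fell, with a median of -0.22. Over all tested genes 15.4% rose and 18.5% fell. For the list, library totals gave 6 higher and 6 lower, and TPM values 3 higher, 2 lower and a median of 0.06. Of the 2 that rose, Il1b had 0 counts in untreated cells. It could pass the filter only through a treated group, so its direction was fixed. The other was Pycard, the gene of the inflammasome adaptor ASC, which went from 48.8, 45.3 and 47.1 to 63.9, 59.6 and 59.8 CPM. Aim2, a DNA sensor of another inflammasome, fell from 46.4, 46.5 and 46.5 to 31.9, 34.9 and 34.3 CPM. The IL-18 receptor chain Il18r1, which signals through the same adaptor, fell from 89.1, 90.1 and 91.1 to 74.3, 73.7 and 68.6 CPM (log2 fold change -0.32 ± 0.06 SE, adjusted p = 1.62e-05). Pycard and Il18r1 were not called with TPM (0.26 and -0.13), and Aim2 was. The NLRP3 sensor gene Nlrp3 had 0 counts in the untreated libraries and 5, 31 and 6 counts in the antibody libraries, too few to test.

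Over all genes, 4545 of 13374 (34.0%) passed the threshold. With the antibody 2066 genes (15.4%) were higher and 2479 (18.5%) lower. In 4311 of the 4545 the 3 antibody libraries all lay beyond the 3 untreated ones. Called genes tend to separate in this way, so this count is no added support. Scaling by the upper quartile gave 2687 higher and 1941 lower, library totals alone gave 3929 and 1344, and TPM values 2645 and 865. TMM left the median fold change of all genes at 0.00348, whereas library totals raised it by 0.127 and TPM by 0.134, so differences under about that size take their sign from the scaling. The falls were concentrated in abundant transcripts. The genes that fell took 50.1, 50.2 and 50.2% of the scaled counts in the untreated libraries and 38.1, 38.2 and 38.4% in the antibody libraries, while those that rose went from 16.6, 16.6 and 16.7% to 19.97, 19.7 and 19.7%. These shares restate the calls and are no separate test.

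The size of a change also depended on the level. Of the genes that rose, 442 did so at least 2-fold, and 370 of these had a mean below 2 log2 CPM. Of the genes that fell, 376 did so at least 2-fold, and 151 were below 2 log2 CPM. At 5 log2 CPM or more, 122 genes fell and 6 rose at least 2-fold. When the genes were cut into 5 equal bins of level, in the most abundant bin 41.1% were lower and 19.7% higher, against 4.34% lower and 11.0% higher in the least abundant bin. A change passes more easily in an abundant gene, so the share called is not the share changed. A low gene absent from untreated cells could pass the filter only through a treated group, and then could only be higher. A low gene absent from both treated groups could pass only through the untreated group. The balance of rises and falls among low genes is therefore partly set by the filter.

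**Figure D1:**
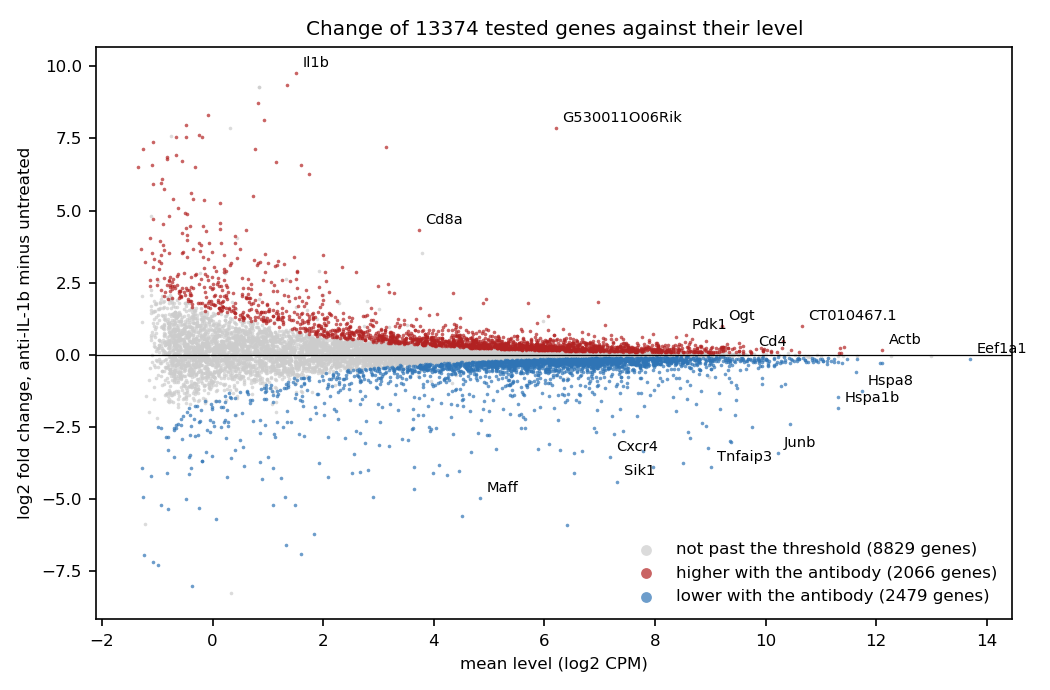
Each point is a tested gene, with its mean level in log2 CPM on the x axis and its log2 fold change, anti-IL-1b minus untreated, on the y axis. Blue points are the 2479 genes lower and red points the 2066 genes higher with the antibody, and heat shock and immediate early genes such as Hspa8 and Junb lie low at the right. Points of genes with 0 counts in a group, such as Il1b, depend on the prior count of the fit.

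Ranked by the loss of CPM, the largest falls with the antibody were those of heat shock chaperones and AP-1 subunits. Hspa8, the constitutive HSP70 chaperone (chromosome 9, 40800984 to 40810087 in mm10), went from 5208, 5369.9 and 5316 CPM in untreated cells to 2206, 2245 and 2260.5 CPM, and Hspa1b, its stress-induced relative, from 4600.3, 4638 and 4757 to 1346, 1281 and 1244 CPM. Their groups were far apart compared with the spread inside each, at log2 fold changes of -1.24 ± 0.02 and -1.85 ± 0.03 SE (adjusted p = 1.77e-35 and 2.05e-31). The HSP90 genes Hsp90ab1 and Hsp90aa1 fell from 4219, 4210.3 and 4257 to 1548, 1545 and 1536 CPM and from 1886, 1873 and 1813 to 327, 334 and 334 CPM. Hspa1a and Hspa1b are near-identical copies, so how reads were divided between them is uncertain.

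Among transcription factors the largest losses were those of Junb, Jun and Klf6. Junb, an AP-1 subunit, went from 3048, 3017 and 3114 to 301, 299 and 259.9 CPM (-3.42 ± 0.07 SE on the log2 scale, adjusted p = 2.29e-08). Klf6, a Kruppel-like factor, went from 1640.1, 1631 and 1665 to 192, 200.01 and 211 CPM and Jun from 1611, 1629 and 1615 to 208, 213 and 197 CPM. No antibody library came near an untreated one for any of these. Ddx5, an RNA helicase of splicing and transcription, lost as much CPM with a far smaller fold, from 4119, 4127 and 4040.0 to 2629, 2720.1 and 2799.5 CPM (-0.59 ± 0.02 SE). Eef1a1, which carries aminoacyl-tRNA to the ribosome and was among the most abundant genes, went from 14040.0, 14147 and 14191 to 12696, 12731 and 12838 CPM, but its log2 fold change of -0.15 became -0.02 with library totals and 0.0045 with TPM, so its fall rests on the scaling.

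The largest gains of CPM were smaller in fold. CT010467.1, annotated as a ribosomal RNA, gained most, from 945, 937 and 955 to 1948, 1853 and 1847 CPM (0.99 ± 0.03 SE, adjusted p = 9.01e-30). The libraries are labelled poly(A) RNA, and whether carry-over of ribosomal RNA had a part in this gain was not tested. The mitochondrial ribosomal RNA mt-Rnr2 moved the other way, from 1458, 1469 and 1402 to 791, 826 and 872 CPM. Ogt, the only enzyme that adds N-acetylglucosamine to nuclear and cytosolic proteins, rose from 370.1, 361 and 367 to 695, 739 and 748 CPM (0.99 ± 0.03 SE, adjusted p = 5.29e-27). Pdk1, which restrains the oxidation of pyruvate in mitochondria, rose from 304, 292 and 308 to 488, 472 and 489.7 CPM.

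Macf1, which links actin and microtubules, went from 2446, 2458 and 2449.6 to 2913, 2921 and 2982 CPM, and Arhgef1, an activator of RHOA, from 2350.5, 2322 and 2344 to 2823, 2747 and 2657 CPM. Kmt2d, a histone H3 methyltransferase of enhancers, went from 1057, 1039 and 1067 to 1506, 1484 and 1373 CPM (0.46 ± 0.03 SE). The chromatin remodeller gene Chd3, the ubiquitin ligase genes Rnf213 and Ubr4, the helicase gene Ddx17, Als2cl and Actb had log2 fold changes of 0.25, 0.41, 0.38, 0.30, 0.22 and 0.16. Separation of all antibody from all untreated libraries was a condition for choosing these 12 gains. Library totals raise fold changes in general, so that each gain was larger with them adds no support. Ddx17 and Ddx5 are partner helicases and moved in opposite directions.

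**Figure D2:**
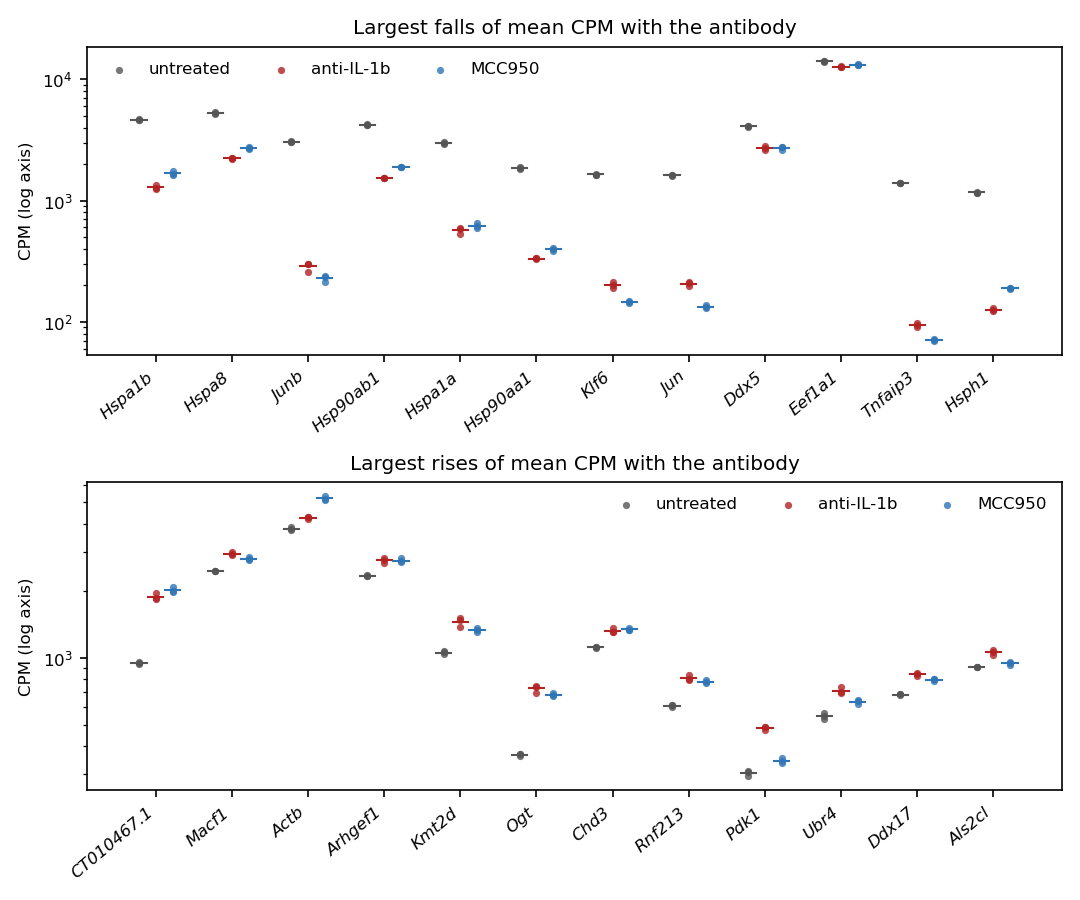
Points are single libraries and short lines group means, on a log axis of CPM, for the 12 largest falls (upper panel) and the 12 largest rises (lower panel) of mean CPM, with the MCC950 libraries beside them. Antibody points lie below all untreated points in the upper panel and above them in the lower one, as the choice of genes required. The fall of Tnfaip3 is the largest in log2 fold among them, at -3.89, and the rises of CT010467.1 and Ogt are the largest, both at 0.99.

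Promoters of 5 genes that fell are shown because each holds a motif of a stress or signal response and belongs to a group described here: chaperones (Hspe1, Chordc1), brakes on MAP kinases (Dusp1) and immediate early genes (Ppp1r15a, and Nfkbia, the NF-kB inhibitor). They were picked after their motifs and values were seen. The sequences are RefSeq's for GRCm38.p6, 250 bases before to 50 after the gene's start, on the gene's strand and 5′ to 3′. Capitals mark a heat shock element of 3 units (GAANNTTCNNGAA or TTCNNGAANNTTC) in Hspe1 and Chordc1, a CRE (TGACGTCA) in Dusp1 and Ppp1r15a, and a kappa B motif in Nfkbia. The windows are chr1:55087898-55088197 (+), chr9:18292017-18292316 (+), chr17:26508423-26508722 (-), chr7:45526219-45526518 (-) and chr12:55492598-55492897 (-).
Hspe1: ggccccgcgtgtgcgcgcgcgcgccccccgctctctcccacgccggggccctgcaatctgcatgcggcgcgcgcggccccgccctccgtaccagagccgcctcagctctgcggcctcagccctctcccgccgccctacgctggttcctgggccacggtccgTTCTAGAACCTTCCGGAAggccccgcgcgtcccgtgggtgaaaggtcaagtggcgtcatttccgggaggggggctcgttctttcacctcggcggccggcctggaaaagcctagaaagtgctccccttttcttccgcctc
Chordc1: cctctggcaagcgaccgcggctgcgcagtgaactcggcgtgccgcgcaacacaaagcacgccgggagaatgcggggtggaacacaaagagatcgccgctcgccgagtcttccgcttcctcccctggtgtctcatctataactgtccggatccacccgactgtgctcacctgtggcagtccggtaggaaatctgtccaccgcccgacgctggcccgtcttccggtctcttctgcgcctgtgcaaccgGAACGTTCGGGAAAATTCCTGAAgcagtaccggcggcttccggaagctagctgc
Dusp1: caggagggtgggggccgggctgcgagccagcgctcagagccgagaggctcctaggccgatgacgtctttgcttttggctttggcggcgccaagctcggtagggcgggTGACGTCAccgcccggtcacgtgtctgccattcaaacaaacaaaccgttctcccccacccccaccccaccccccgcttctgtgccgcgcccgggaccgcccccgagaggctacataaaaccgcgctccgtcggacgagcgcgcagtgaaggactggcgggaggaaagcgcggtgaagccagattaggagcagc
Ppp1r15a: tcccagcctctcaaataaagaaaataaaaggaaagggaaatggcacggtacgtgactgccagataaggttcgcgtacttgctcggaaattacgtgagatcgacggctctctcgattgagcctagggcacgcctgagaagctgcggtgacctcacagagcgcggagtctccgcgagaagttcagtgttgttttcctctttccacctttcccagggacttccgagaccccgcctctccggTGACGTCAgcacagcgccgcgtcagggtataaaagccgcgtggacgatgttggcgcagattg
Nfkbia: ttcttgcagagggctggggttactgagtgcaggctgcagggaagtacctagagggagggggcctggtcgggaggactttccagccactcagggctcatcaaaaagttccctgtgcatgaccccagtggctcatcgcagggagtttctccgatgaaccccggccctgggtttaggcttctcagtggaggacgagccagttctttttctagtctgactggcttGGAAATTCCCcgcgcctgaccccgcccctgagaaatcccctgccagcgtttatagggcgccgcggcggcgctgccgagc

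In Hspe1, 2 overlapping elements begin 89 and 84 bases before the start, and in Chordc1, of 3 overlapping elements, the first crosses the start and the others lie after it. The CRE begins 143 bases before the start in Dusp1 and 12 in Ppp1r15a, and the kappa B motif 29 in Nfkbia. Hspe1, the mitochondrial co-chaperonin HSP10, went from 179, 187 and 183 to 81.3, 64.7 and 78.2 CPM and Chordc1, an HSP90 partner, from 168, 169 and 165 to 108, 107 and 109 CPM. Ppp1r15a, which recruits a phosphatase to the initiation factor eIF2, went from 910.1, 977 and 977 to 134, 132 and 127 CPM, and Nfkbia from 267, 286 and 263 to 111, 111 and 102 CPM. All of these fell without overlap of the groups.

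Of the tested genes, 7427 (55.5%) had exactly 1 promoter in the RefSeq table. The heat shock element stood in 0.377% of these promoters, in 0.476% of those of genes that fell, in 0.423% of those of genes that rose and in 2 of 15 chaperone promoters. Among genes that changed at least 2-fold it stood in 0.529% of the promoters that fell and in 1.08% of those that rose. The CRE stood in 3.41% of all of them, in 6.35% of the 189 that fell at least 2-fold and in 1.08% of the 186 that rose at least 2-fold. For the kappa B motif (both strands) these shares were 6.56, 10.1 and 8.60%, for AP-1 (TGANTCA) 4.30, 5.82 and 7.53%, for CArG (by name, both strands) 1.24, 1.59 and 2.69%, and for a TATA box (TATAAA or TTTATA) 6.54, 12.7 and 11.3%. By list, the CRE stood in 0 of 13 promoters of the cAMP and CREB route and in 0 of 15 of chaperones. It stood in 3 of 18 of MAP kinase feedback inhibitors and in 3 of 23 of immediate early genes. In the bZIP list both the CRE and AP-1 stood in 0 of 19. A match is a run of letters, not a shown binding site.

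The machinery of the T cell receptor moved by small amounts. Of 40 tested members of the T cell receptor machinery, 5 were higher and 16 lower with a median of -0.02, which became 21 higher, 8 lower and a median of 0.11 with library totals. The kinase genes Lck and Zap70 and the adaptor gene Lat did not pass, at 0.03, 0.08 and 0.01. Bcl10, which acts with MALT1 on the way to NF-kB, fell from 92.1, 86.7 and 77.9 to 41.1, 43.4 and 40.9 CPM (-1.03 ± 0.07 SE, adjusted p = 2.98e-15), while Malt1 stood at -0.15 and lost its call with library totals (-0.02). Themis, a T cell receptor signalling modulator, fell from 281, 283 and 273 to 201, 213 and 226 CPM and Sla, an adaptor that lowers receptor levels, by 0.48.

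In the calcium and NFAT list 6 of 29 rose and 10 fell (median -0.07, with library totals 9 higher and 7 lower and a median of 0.06). Dyrk1a, a kinase that sends NFAT out of the nucleus, fell from 226, 219 and 212 to 137, 138 and 135 CPM, and the calcium sensor gene Stim2 from 63.0, 65.5 and 67.0 to 45.8, 46.4 and 51.4 CPM. Nfatc2, one of the NFAT factors, fell by 0.43 and the calcium pump gene Atp2b4 by 0.84. Of these, Dyrk1a kept its call with TPM, while Stim2, Nfatc2 and Atp2b4 lost theirs, at -0.27, -0.22 and -0.10. The calcineurin genes Ppp3ca, Ppp3cb and Ppp3cc did not pass, at 0.11, -0.03 and -0.03.

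Feedback inhibitors of MAP kinases held some of the largest falls. Of 22 tested, 11 fell and 1 rose, with a median of -0.28. Dusp1, a phosphatase of p38 and JNK, went from 572, 559.8 and 563 to 54.9, 58.1 and 55.8 CPM, Dusp10, of the same substrates, from 256, 270.4 and 266 to 47.7, 44.2 and 44.6 CPM, and Dusp5, a nuclear ERK phosphatase, from 226, 228 and 226 to 21.9, 22.2 and 20.3 CPM. In each, the highest antibody library was far below the lowest untreated one. Dusp4 fell from 14.0, 12.1 and 18.2 to 1.63, 0.451 and 0.459 CPM. The Sprouty-related genes Spred1, Spred2 and Spred3 did not pass (-0.16, -0.20 and -0.26).

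Of 26 tested genes of the cAMP and CREB route, 17 fell and 1 rose, with a median of -0.22 (-0.09 with library totals). Sik1, a salt-inducible kinase that is itself induced by cAMP and holds back CREB co-activators, went from 418, 436 and 456 to 21.6, 20.6 and 20.3 CPM (-4.39 ± 0.05 SE, adjusted p = 4.07e-41). Its relative Sik3 fell by 0.14 but lost its call with library totals (-0.02), and Sik2 did not pass at 0.06. Crem, a CREB family gene, fell from 21.8, 22.7 and 24.9 to 6.81, 6.57 and 5.71 CPM and Nr4a3, an orphan nuclear receptor gene, from 36.9, 36.5 and 33.5 to 15.5, 14.95 and 16.1 CPM. The kinase subunit Prkaca and the adenylyl cyclase gene Adcy7 stood at 0.07, without passing, and 0.23.

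Of 24 tested regulators of G protein signalling and related receptors, 12 fell and 3 rose (median -0.15, with library totals 8 higher and 10 lower and a median of -0.03). Rgs1 and Rgs2, which end signals of chemokine and other receptors, went from 54.8, 46.3 and 46.0 to 2.50, 3.09 and 2.56 CPM and from 252, 267 and 261 to 27.8, 22.9 and 26.0 CPM. Gpr183, the oxysterol receptor that positions helper T cells in the spleen, went from 237, 228 and 232 to 76.1, 76.4 and 75.7 CPM, and Gpr132 from 417, 414 and 430.2 to 235, 234 and 229 CPM. Rgs10, Rgs19 and the G protein gene Gnai2 did not pass, at 0.03, 0.10 and -0.07.

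Homing receptors moved in both directions, with 10 of 26 higher and 8 lower (median -0.05, with library totals 13 higher and 4 lower and a median of 0.08). Cxcr4, the receptor for CXCL12, went from 372, 371 and 373 to 33.9, 30.1 and 31.6 CPM and Cd69, which keeps S1PR1 from the surface, from 402, 403 and 379 to 62.8, 68.1 and 61.1 CPM. S1pr1 itself, the exit receptor, fell from 822, 812 and 813 to 584, 572 and 566 CPM and Ccr7, the lymph node entry receptor, from 649.8, 641 and 665 to 468, 462 and 454 CPM. The integrin gene Itgal rose by 0.27 and its ligand gene Icam2 by 0.30. Ccr9, a gut homing receptor, rose from 7.38, 5.59 and 5.70 to 8.26, 11.2 and 10.6 CPM.

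Costimulatory and inhibitory receptors had 7 of 29 members higher and 10 lower (median -0.03, with library totals 10 higher and 7 lower and a median of 0.10). Ctla4, the inhibitory receptor for CD80 and CD86, went from 45.6, 42.0 and 44.2 to 3.84, 1.998 and 3.41 CPM (-3.82 ± 0.18 SE, adjusted p = 2.21e-17), and Cd28, its activating counterpart, from 397, 410.0 and 377 to 265, 288 and 287 CPM. Cd40lg, the helper signal for B cells, fell from 142, 133 and 148 to 53.4, 56.5 and 51.4 CPM and Icos from 51.3, 46.6 and 48.7 to 32.7, 28.6 and 34.8 CPM. Cd27 rose from 187, 181 and 176 to 233, 223 and 228 CPM. Tnfrsf9 rose from 1.58, 0.495 and 0.523 to 5.30, 7.22 and 6.23 CPM, and Cd200 by 0.65 (0.32 and not called with TPM).

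Receptors for cytokines had 5 of 26 members higher and 10 lower (median -0.03, with library totals 9 higher and 8 lower and a median of 0.09). Both chains of the interferon gamma receptor fell, Ifngr1 from 181, 186 and 174 to 96.6, 92.1 and 98.0 CPM and Ifngr2 from 77.8, 79.4 and 71.6 to 44.8, 44.9 and 50.3 CPM. The interferon alpha receptor genes Ifnar1 and Ifnar2 did not pass (-0.04 and -0.07). Il7r stood at 0.15, Il2rg at -0.03 without passing, and Il10ra rose from 21.4, 21.4 and 23.5 to 27.6, 35.6 and 30.4 CPM.

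**Figure D3:**
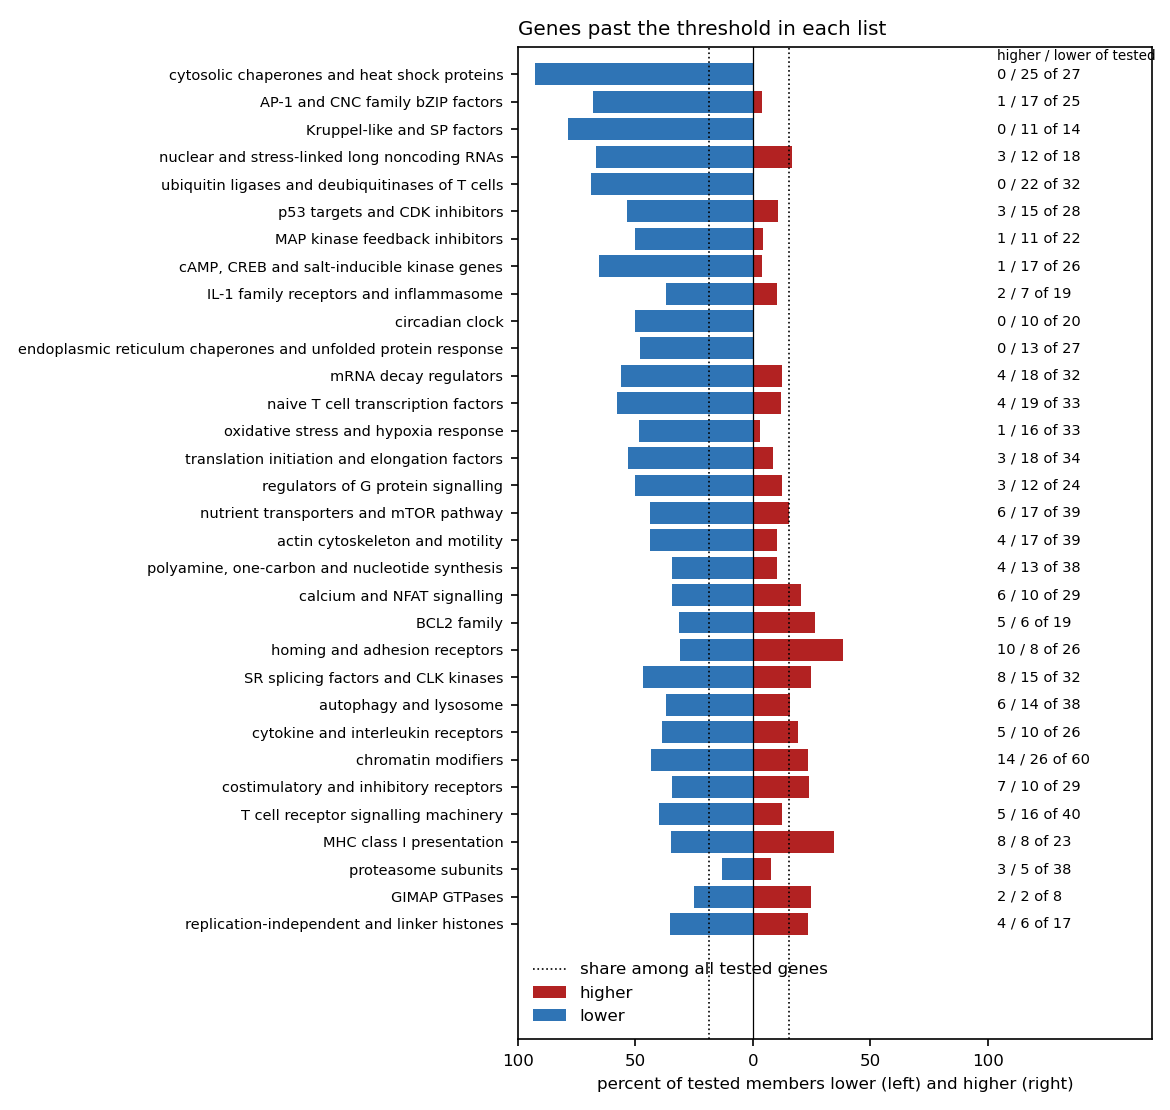
Bars give the percent of tested members of each list that were lower (blue, left) and higher (red, right) with the antibody, with the counts at the right. Dotted lines are the shares among all tested genes, 18.5% lower and 15.4% higher. Lists are ordered by their median fold change, from the cytosolic chaperones with 25 of 27 lower at the top to the histones with 4 higher and 6 lower of 17.

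Of 25 tested transcription factor genes of the bZIP family, 17 fell and only Atf7 rose, with a median of -0.75. Fosb went from 688, 670.1 and 702 to 46.3, 45.9 and 45.8 CPM, Fosl2 from 237, 243 and 256 to 15.2, 15.1 and 12.3 CPM and Maff from 82.2, 72.1 and 84.7 to 1.57, 3.55 and 2.62 CPM. Atf2 and Nfe2l2, the regulator of the antioxidant response, did not pass (-0.05 and -0.12). Without the 9 bZIP genes that are also on the list of handling-induced immediate early genes, 9 of 16 fell and 1 rose, with a median of -0.23.

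Of 14 Kruppel-like and SP factors, 11 fell and none rose (median -0.72). Klf4 went from 59.8, 57.4 and 60.3 to 3.84, 3.29 and 3.67 CPM, Klf11 from 31.0, 30.1 and 41.3 to 4.77, 6.19 and 7.02 CPM and Klf10 from 23.8, 23.8 and 17.6 to 7.16, 7.09 and 9.12 CPM. The broadly acting Sp1 and Sp3 fell by 0.37 and 0.31, and Klf3, a repressor, did not pass at 0.01. With TPM Sp3 lost its call (-0.01). Without the 3 that are also on the handling list, 8 of 11 fell, with a median of -0.31.

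Transcription factors of naive T cells fell in more cases than they rose, mostly by small amounts. Of 33 tested, 19 fell and 4 rose, with a median of -0.16 that was -0.04 with library totals and 0.02 with TPM. Tcf7, Lef1 and Satb1 did not pass, at -0.02, -0.06 and 0.06, and Foxo1 and Ets1 fell by 0.11 and 0.12 but stood at 0.01 and 0.01 with library totals. The larger falls were those of Ets2, from 133, 132 and 126 to 53.4, 50.8 and 43.1 CPM, of Gfi1, a repressor, from 26.5, 24.0 and 25.4 to 12.5, 13.3 and 11.1 CPM, and of Id2, an inhibitor of E proteins, from 46.5, 55.4 and 45.8 to 27.5, 33.8 and 31.8 CPM. Ikzf2, which marks a set of regulatory T cells, rose from a low 2.80, 2.57 and 3.51 to 5.94, 6.83 and 7.61 CPM and was not called with TPM (0.57). Runx3, the CD8 lineage factor, fell from 121, 117 and 118 to 83.8, 78.6 and 75.2 CPM while Cd8a, the CD8 co-receptor gene, rose from 1.28, 0.792 and 0.837 to 22.5, 18.0 and 17.6 CPM.

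Of 20 tested clock genes, 10 fell and none rose, with a median of -0.21 that TPM put at 0.00. Per1 went from 264, 279 and 293 to 48.8, 41.5 and 39.4 CPM and Nfil3 from 18.2, 15.6 and 13.9 to 1.40, 2.38 and 1.90 CPM. Nr1d2, a repressor of the loop, fell from 67.4, 72.6 and 67.5 to 45.7, 48.3 and 46.1 CPM. Per2, Cry1, Cry2 and Dbp, which swing with the time of day, did not pass (-0.12, -0.04, -0.16 and 0.01).

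Chromatin modifiers moved by small amounts. Of 60 tested, 14 rose and 26 fell (median -0.03, with library totals 26 higher and 12 lower and a median of 0.10). Sirt1, a deacetylase, fell from 96.2, 102 and 99.7 to 50.05, 50.2 and 52.2 CPM and Kdm6b, the inducible H3K27 demethylase, from 258, 251 and 269.8 to 166, 148 and 139 CPM. The bromodomain gene Brd2 fell by 0.47 and the acetyltransferase gene Kat2b by 0.56. Within the Polycomb complex, the catalytic gene Ezh2 stood at 0.25 and its partners Eed and Suz12 at -0.25 and -0.23, all past the threshold, although with library totals Eed and Suz12 were not called (-0.12 and -0.10). Among the histones, H2afz fell from 175, 183 and 199 to 83.7, 90.4 and 92.6 CPM and H3f3b, a source of replacement histone H3.3, from 609, 597 and 603 to 392, 382 and 381 CPM, while 4 of 17 histone genes rose and 6 fell (median 0.08, with library totals 7 higher and 5 lower and a median of 0.21).

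Splicing regulators held genes in both directions. Of 32 SR factors and CLK kinases, 8 rose and 15 fell (median -0.04, with library totals 16 higher and 8 lower and a median of 0.08). Tra2b went from 375, 392 and 365 to 207, 212 and 230.3 CPM and Clk1, a kinase of SR proteins, from 859.8, 826 and 812 to 510.4, 537 and 537 CPM, both lower in every antibody library. Pnisr, an SR-related gene, rose from 259, 265 and 253 to 380.1, 404 and 406 CPM. Clk4 and Clk3 did not pass (0.01 and 0.06).

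Of 32 genes that shorten mRNA lifetimes, 18 fell and 4 rose (median -0.17, with library totals 6 higher and 10 lower and a median of -0.04). Tob2, which recruits the deadenylase, went from 418, 409 and 424 to 97.2, 96.0 and 93.8 CPM and Btg2, of the same family, from 661, 673 and 659 to 233, 223 and 228 CPM. Zfp36l2, which binds AU-rich elements, fell from 1122, 1134 and 1125 to 505, 518 and 507 CPM and Zc3h12a, the endonuclease Regnase-1, from 78.1, 63.2 and 78.4 to 29.7, 26.8 and 25.0 CPM. Subunits of the deadenylase itself, such as Cnot1, Cnot7 and Cnot8, stood at -0.08, past the threshold but turned to 0.05 by library totals, and at -0.02 and -0.01, which did not pass.

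Of 18 named long noncoding RNAs, 12 fell and 3 rose (median -0.55, with library totals 4 higher and 10 lower and a median of -0.42). Mir17hg, the host of the miR-17-92 cluster, went from 53.3, 52.4 and 46.9 to 14.2, 12.2 and 12.9 CPM and Snhg1, a snoRNA host, from 164, 166 and 168 to 85.1, 78.0 and 92.2 CPM. Snhg15 fell by 1.71, Snhg5 fell by 0.93 and Snhg8 fell by 0.81. Snhg3 did not pass at 0.07, and Snhg17 rose by 0.38, a call it lost with TPM.

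Noncoding genes taken by annotation class rose more often than they fell. Of 1433 tested genes annotated as antisense, lincRNA, TEC (unverified models) or processed transcript, 277 (19.3%) rose and 86 (6.0%) fell, with a median of 0.33. With library totals they were 347 and 73, and with the upper quartile 300 and 77. By class, 90 of 443 antisense genes rose and 14 fell, 65 and 23 of 257 lincRNAs, 81 and 30 of 526 TEC genes and 41 and 19 of 207 processed transcripts. Protein-coding genes had 1723 of 11158 higher and 2306 lower. Processed pseudogenes had 15 of 388 higher and 55 lower, and their reads cannot be told apart from those of their parent genes.

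Among genes of like abundance, the shares differed as follows. From 2 to 4 log2 CPM, 33.0% of 267 such noncoding genes rose and 8.99% fell, against 13.3 and 9.71% of 2009 protein-coding genes. From 4 to 6 log2 CPM the shares that rose were 41.7% of 72 and 14.9% of 3865. From -2 to 0 log2 CPM the order was turned, with 8.78% of 444 noncoding and 13.7% of 613 coding genes higher. At such low levels the filter takes part in these shares, as described above. The strand setting of the read counting is not stated, so reads of an antisense gene and of its partner may be mixed.

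**Figure D4:**
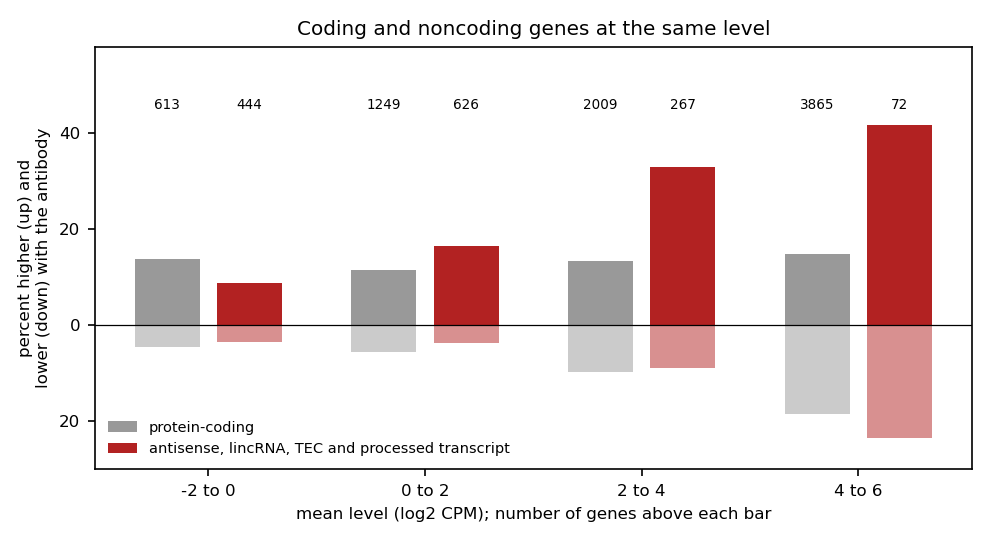
Bars show the percent of genes higher (upward) and lower (downward, pale) with the antibody in 4 ranges of mean log2 CPM, for protein-coding genes (grey) and for antisense, lincRNA, TEC and processed transcripts (red). Numbers above the bars are genes tested. From 2 to 4 log2 CPM the upward bars stand at 33.0% of 267 noncoding and 13.3% of 2009 coding genes.

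Of 27 cytosolic chaperones and heat shock genes, 25 fell and none rose, with a median of -1.24. Their summed level was 25336, 25557 and 25624 CPM in the untreated and 8346, 8370.0 and 8294 CPM in the antibody libraries. Dnajb4, a J-domain co-chaperone, went from 183, 197 and 195 to 18.0, 19.9 and 20.6 CPM and Bag3, an HSP70 exchange factor, from 78.0, 86.0 and 87.9 to 9.60, 10.2 and 6.63 CPM. Hsf1, the transcription factor that induces these genes through its protein, did not pass at -0.06. Heat shock genes also respond to cell isolation, and the immediate early genes of tissue handling fell beside them, in 30 of 33 cases with none higher and from a summed 18786, 18882 and 19134 CPM to 3988, 3904 and 3789.6 CPM. The labels give no handling times, and the part of handling in these falls was not tested.

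In the endoplasmic reticulum, 13 of 27 folding and unfolded protein response genes fell and none rose (median -0.18, and -0.05 with library totals). Hspa5, the luminal HSP70, went from 737, 728 and 707 to 307, 309.6 and 299.7 CPM and Dnajb9, its co-chaperone, from 114, 118 and 109 to 18.0, 20.05 and 20.8 CPM. Herpud1 and Xbp1 fell by 0.97 and 0.89. Genes that did not pass included Pdia4 at 0.12, Sdf2l1 at -0.03 and Hyou1 at -0.05.

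Of 32 ubiquitin, ligase and deubiquitinase genes, 22 fell and none rose (median -0.29). Ubb, which encodes polyubiquitin, went from 1941, 2025 and 2053 to 974, 1018 and 988 CPM. Tnfaip3, the ubiquitin-editing brake on NF-kB also known as A20, went from 1387, 1387 and 1388 to 89.8, 94.7 and 97.3 CPM, and Socs1, a brake on cytokine signals, from 35.5, 40.9 and 40.9 to 22.5, 19.8 and 21.9 CPM. Of 38 proteasome subunits, 3 rose and 5 fell, 21.1% in all against 34.0% of all tested genes, although with library totals 19 were higher and 1 lower. The immunoproteasome gene Psmb9 rose from 123, 125 and 124 to 151, 159 and 152 CPM.

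Of 34 translation factors 18 fell and 3 rose (median -0.16, with library totals 9 higher and 9 lower and a median of -0.03). TPM values gave 8 higher, 7 lower and a median of 0.01, so the balance of this list rests on the scaling. Eif1, which guards start codon choice, went from 588, 599 and 587 to 269, 292 and 295 CPM and its partner Eif5 from 659, 673 and 654 to 396, 407 and 421 CPM. Eif4a1 and Eif4a2, the helicase genes, fell by 0.42 and 0.40. The scaffold genes Eif4g1 and Eif4g3 rose by 0.22 and 0.22.

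In the BCL2 family of survival and death genes, 5 of 19 were higher and 6 lower (median -0.05, with library totals 6 higher and 5 lower and a median of 0.07). Mcl1, a short-lived survival protein's gene, went from 1027, 1027 and 1034 to 498, 492 and 509 CPM (-1.04 ± 0.03 SE, adjusted p = 2.19e-29). Bcl2 rose by 0.21, whereas the death-promoting Bbc3 fell from 22.98, 19.8 and 23.6 to 10.4, 12.1 and 10.3 CPM and Bmf fell by 1.16 (-0.54 and not called with TPM). Bcl2l11, Bax and Bcl2l1 did not pass (-0.09, -0.03 and -0.00).

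Of 28 stress-linked cell cycle genes, 15 fell and 3 rose (median -0.29, with library totals 10 higher and 13 lower and a median of -0.17). Plk2 went from 28.6, 35.4 and 32.2 to 2.21, 2.51 and 1.71 CPM, Gadd45b from 60.2, 69.7 and 62.2 to 9.37, 8.57 and 11.7 CPM and Plk3 from 59.7, 59.7 and 56.8 to 13.6, 11.4 and 11.9 CPM. Cdkn1b, the p27 inhibitor of quiescent T cells, fell by 0.70. The p53 targets Ccng1, Aen and Sesn1 did not pass (0.03, 0.06 and 0.05). In the GIMAP family of lymphocyte survival GTPases, Gimap6 went from 1515, 1514 and 1482 to 758, 724 and 768 CPM, Gimap9 fell by 0.59, and Gimap3 and Gimap1 rose by 0.16 and 0.12. Gimap6 lies in a cluster of close relatives, between which reads may be shared.

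Nutrient and mTOR genes had 17 of 39 members lower and 6 higher (median -0.12, with library totals 12 higher and 12 lower and a median of 0.01). Slc38a2, a glutamine transporter, went from 815, 800.3 and 807 to 247, 238 and 251 CPM, Slc2a1, the glucose transporter GLUT1, from 49.0, 53.7 and 56.8 to 34.0, 35.0 and 32.7 CPM and Tfrc, the transferrin receptor, from 89.7, 83.4 and 80.3 to 49.8, 52.0 and 42.7 CPM. Rps6kb2, an S6 kinase, rose from 29.0, 27.2 and 31.1 to 52.6, 51.1 and 58.8 CPM and was not called with TPM (0.41). Mtor and Akt1 did not pass (0.13 and -0.01).

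Odc1, the first enzyme of polyamine synthesis, went from 105, 113 and 104 to 30.7, 27.8 and 27.1 CPM, Amd1, the next controlled step, from 138, 140.5 and 134 to 59.7, 65.0 and 69.6 CPM, and Mat2a, which makes S-adenosylmethionine, from 389, 388 and 374 to 177, 181 and 198 CPM. Over this list of 38, 13 fell and 4 rose (median -0.08, with library totals 10 higher and 8 lower and a median of 0.05). Among genes of oxidative stress and hypoxia, 16 of 33 fell and 1 rose (median -0.16, with library totals 3 higher and 9 lower and a median of -0.03). Sod1 went from 149, 152 and 144 to 86.8, 88.5 and 93.1 CPM and Hif1a from 146, 134 and 136 to 99.2, 93.5 and 96.5 CPM. Pdk1 was the 1 that rose. Map1lc3b and Sqstm1 of the autophagy list, 14 lower and 6 higher of 38 (median -0.04, with library totals 17 higher and 8 lower and a median of 0.09), fell by 0.80 and 0.58.

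Genes of MHC class I presentation moved in both directions, 8 of 23 up and 8 down (median 0.00, with library totals 13 higher and 5 lower and a median of 0.13). The peptide transport and loading genes Tap1 and Tapbp and the activator gene Nlrc5 rose by 0.17, 0.21 and 0.30, and B2m, the light chain, fell from 1343, 1328 and 1297 to 1022, 1043 and 1073 CPM. The heavy chain genes H2-K1 and H2-D1 fell by 0.28 and 0.29, and H2-Q6, whose reads may be shared with other H2-Q genes, from 539, 539 and 556 to 255, 236 and 240.2 CPM.

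Cytoskeletal genes had 17 of 39 members lower and 4 higher (median -0.08, with library totals 19 higher and 8 lower and a median of 0.05). Rhob, an immediate early GTPase gene, went from 112, 109 and 111 to 20.9, 19.5 and 16.7 CPM. Ezr, which ties the membrane to actin, and the myosin light chain gene Myl12a fell by 0.28 and 0.27. Coro1a and the integrin-linked Flna did not pass (-0.04 and 0.00).

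The mix of transcripts within a gene was read from RSEM's length value, the mean length of its transcripts weighted by their estimated abundance. In 7714 genes with a mean of at least 10 CPM whose length value varied among libraries, limma on log2 length called 43 (0.557%), 23 longer and 20 shorter with the antibody, and 1055 had an unadjusted p under 0.05. The count ran from 0 to 109 over the 12 alternatives, and the fit on the 6 compared libraries alone gave 0. Mgst2, a microsomal glutathione transferase gene, had lengths of 990.1, 936 and 936 bases in the untreated and 1436, 1338 and 1353 bases in the antibody libraries (log2 ratio 0.53 ± 0.05 SE, adjusted p = 0.0188 from limma). Nr4a1, an orphan nuclear receptor induced by receptor signals, went from 2148, 2116 and 2152 to 1697, 1576 and 1731 bases (log2 ratio -0.36) and Hsph1 from 1912, 1871 and 1890.3 to 2396, 2453 and 2616 bases (log2 ratio 0.40). The groups did not overlap in any of the 43. The log2 ratios of Nagpa, Surf2, Fam173b, Fancc and Fam53a were 0.43, 0.37, 0.34, -0.34 and 0.31, and none of these 8 was called in more than 6 of the 12 alternatives. Some smaller ratios were called in more of them: Sod1 (-0.23) in 11, Emb (0.21) in 9 and Churc1 (0.21) in 8. Sod1 went from 895, 887 and 880 to 766, 745 and 759 bases. None of the 43 was called in all 12.

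Markers of other cell types were also read. Of 24 tested B cell markers 22 rose and none fell, and their summed level went from 378, 366 and 357 to 570.3, 562 and 545 CPM. Igkc, the kappa light chain, went from 0.914, 1.19 and 1.203 to 9.02, 8.06 and 7.61 CPM and H2-Aa, an MHC class II chain, from 1.58, 2.82 and 1.73 to 10.7, 12.2 and 10.8 CPM. Of the CD8, NK and innate-like markers 6 of 14 rose and 1 fell, with summed levels of 113, 113 and 116 and 155, 155 and 157 CPM. Cd8b1, the other CD8 chain, stood at 12.3, 10.7 and 14.4 and 25.5, 27.1 and 26.2 CPM.

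Of 13 tested neutrophil markers 10 rose and 1 fell, a count that supports nothing, since a marker at 0 in untreated cells could pass the filter on low levels only through a treated group and so had to be higher there. The same holds in part for the monocyte and erythroid lists. Among all 23 neutrophil markers listed, 12 had 0 counts in the untreated group and 1 in the antibody group, and Elane was at 0 in all 9 libraries. The summed level, 86.1, 94.8 and 90.5 CPM untreated and 87.2, 83.7 and 82.7 CPM with the antibody, includes Mxd1, a repressor gene also active in T cells, which fell from 78.8, 86.3 and 80.9 to 33.1, 33.2 and 30.6 CPM. S100a9, an abundant neutrophil protein's gene, had 0, 3 and 0 counts in the untreated and 103, 95 and 82 in the antibody libraries. Of the monocyte, macrophage and dendritic cell markers 6 of 11 rose and 1 fell, from a summed 14.9, 13.8 and 12.9 to 29.7, 30.8 and 28.8 CPM, with Lyz2 going from 0.853, 0.792 and 0.889 to 7.10, 8.06 and 5.64 CPM. Of 8 erythroid and platelet markers 5 rose and 1 fell, although their summed level was lower with the antibody, at 68.4, 69.0 and 60.8 against 102, 92.3 and 91.4 CPM. Most of that sum was Tfrc, the 1 marker that fell, whose levels are given above with the nutrient genes. The platelet gene Pf4 was at 0 counts in all 9 libraries.

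Lists of related T cells, plasma cells and tissue cells were read in the same way. Of 22 regulatory and memory markers 4 rose and 5 fell, from a summed 831, 838 and 772 to 414, 411 and 415 CPM, with Cd69 alone going from a mean of 395 to 64.0 CPM. Foxp3, the regulatory T cell factor, was at 0.914, 0.297 and 0.419 and 1.80, 0.773 and 0.853 CPM with overlapping ranges and did not pass (adjusted p = 0.146). Of 9 plasma cell markers 4 rose and 2 fell, and their summed level was lower with the antibody, at 81.0, 82.3 and 78.0 against 152, 156 and 158 CPM. The 2 that fell were Irf4 (log2 fold change -3.38) and Xbp1, which is also counted above with the unfolded protein response genes. Only 2 of 22 stromal and endothelial markers could be tested, and 15 had 0 counts in the antibody group. The part of these cells in the rises and falls above was not tested.

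**Figure D5:**
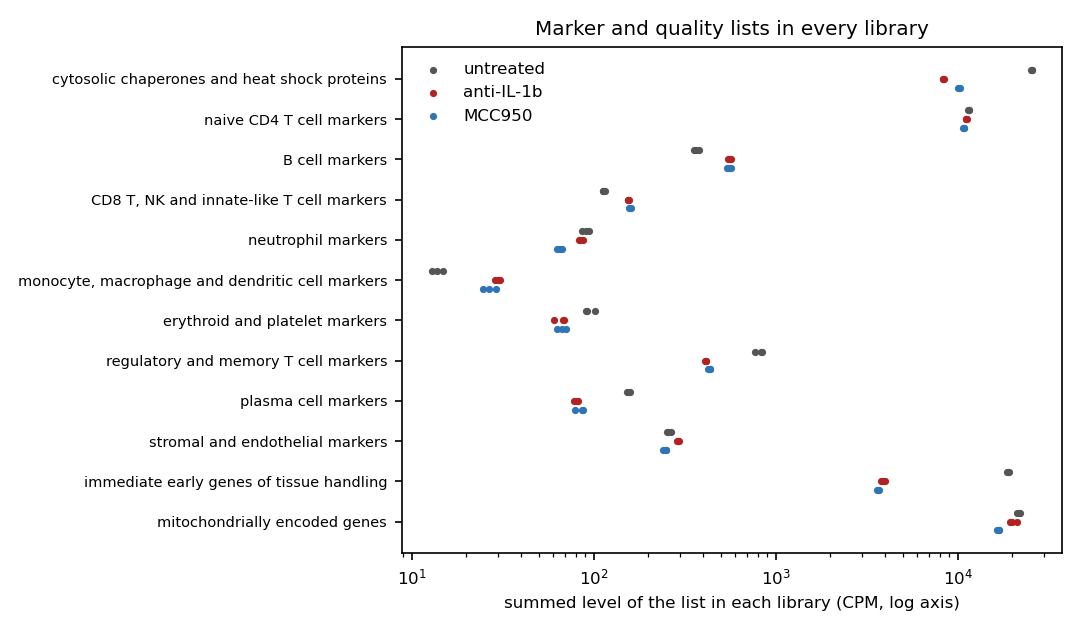
Each point is the summed CPM of a marker or quality list in 1 library, on a log axis, for untreated, anti-IL-1b and MCC950 libraries. The B cell list lies at 357 to 378 CPM in untreated and 545 to 570 CPM in antibody libraries, and the naive CD4 list between 11146 and 11572 CPM in both. Chaperones and immediate early genes of handling separate the groups most.

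MCC950, an inhibitor of NLRP3, acts upstream of the same cytokine, and the 2 treatments were compared directly. Of 13374 genes, 1771 (13.2%) differed, 820 higher and 951 lower with the antibody than with MCC950. Of the 4545 genes called against untreated cells, 968 (21.3%) were among them. Among the 27 chaperones, 19 were lower with the antibody than with MCC950 and 1 was higher. Their summed level was also low with MCC950, at 10112, 10123 and 10270 CPM, against means of 25506 CPM untreated and 8337 CPM with the antibody. Hsph1 stood at 123, 129.7 and 124 CPM with the antibody and 186, 192 and 191 CPM with MCC950 (-0.59 ± 0.03 SE, adjusted p = 2.65e-17).

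Among 33 immediate early genes, 13 were higher and 5 lower with the antibody than with MCC950. Their summed level with MCC950 was 3703, 3601 and 3638 CPM, against means of 18934 CPM untreated and 3894 CPM with the antibody. Fosb stood at 46.3, 45.9 and 45.8 CPM with the antibody and 13.0, 10.4 and 12.7 CPM with MCC950, a difference of 1.94 ± 0.06 SE (adjusted p = 3.29e-25). Of 14 Kruppel-like and SP factors 9 were higher and 1 lower than with MCC950, Klf6 among them at 192, 200.01 and 211 against 149, 143 and 145 CPM. Of 33 naive T cell transcription factors 14 were higher and 2 lower. Sik1, Cxcr4 and Ctla4, all of which fell with the antibody, stood at 0.07 ± 0.07, 0.01 ± 0.06 and -0.01 ± 0.22 SE against MCC950 with adjusted p of 0.547, 0.928 and 0.985.

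Proteasome subunits were lower than with MCC950 in 16 of 38 cases and higher in none, and cytoskeletal genes lower in 17 of 39 and higher in 3. Of all 13374 genes 951 were lower and 820 higher. Of the 2675 genes in the most abundant of the 5 bins of level, 501 were lower and 479 higher, so a list of abundant genes is to be set against a larger share. Actb stood at 4317, 4283 and 4201 CPM with the antibody and 5326, 5130.4 and 5184 CPM with MCC950 (-0.29 ± 0.02 SE, adjusted p = 6.21e-14). Mitochondrially encoded genes were higher than with MCC950 in 8 of 13 cases, with mt-Nd2 at 1174, 1144 and 1142 CPM untreated, 929, 954 and 989.9 CPM with the antibody and 705, 720.2 and 694 CPM with MCC950. Pdk1, at 342, 354 and 337 CPM with MCC950, differed from it by 0.49 ± 0.03 SE. TPM values gave 572 differing genes in place of 1771.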

How the data were processed

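RNA, labelled poly(A), was extracted with RNAiso PLUS, and library preparation used the NEBNext Ultra II Directional kit, per the labels' protocols. STAR, RSEM and mm10 are named in the submitters' processing notes with no version. The values tested were the deposited expected counts, RSEM's unnormalized estimates of reads per gene, per the file headers. TPM values as deposited are relative to effective length and scaled to a common total, and the deposited length is the abundance-weighted mean transcript length in bases, per the file headers. Deposited FPKM values were not used.

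Expected counts were rounded, filtered with filterByExpr, scaled by TMM and fitted with edgeR 4.0.16 (R 4.3.3, robust quasi-likelihood, 3 group means over 9 libraries), with an adjusted p threshold of 0.05. In the main contrast the MCC950 libraries enter only the estimate of spread and the filter. Lengths were fitted with limma 3.58.1. Symbols, classes and coordinates are from GENCODE M21 (GRCm38, the same as mm10), which matched 99.5% of 55487 IDs. The fits were tested on simulated data. The members, the 43 gene lists (1128 symbols, of which 1003 were tested, 118 were below the filter and 7 had no entry) and the tests were chosen with earlier results of these data known.

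Named genes were the 12 largest rises and falls of mean CPM among called genes with separate groups, up to 5 called members per list with the largest fold and a mean log2 CPM of at least 2, the 8 largest length ratios, fixed checks, and list members that did not pass. Predicted genes, pseudogenes, receptor segments, ribosomal protein and mitochondrially encoded genes were passed over in the first group, 1 among the rises and 0 among the falls. Members of lists with smaller changes were named after their values were seen, to show the range of a list. The length calls that held in the most alternatives were also named after their values were seen. A few genes chosen in this way are not reported here. Alternatives were other scalings, filters, DESeq2 1.42.0, limma-voom, limma on log2(TPM + 1), a block for the replicate number, the 6 compared libraries alone and leaving out each library in turn.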

Additional observations from a re-analysis of the deposited data

How the results depend on the processing

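The count of 4545 genes between antibody and untreated cells ran from 3510 with log2(TPM + 1) to 5273 with library totals, and from 3954 to 4212 when 1 library was left out. Its split moved more: library totals gave 3929 higher and 1344 lower and TPM 865 lower in place of 2479, and the cause was not tested. Against MCC950, TPM gave 572 genes, 363 higher and 209 lower, in place of 1771, and leaving out 1 library gave 1246 to 1575. The 43 length calls became 18 with a mean CPM of at least 1, 109 with at least 30, 0 with only the 6 compared libraries and 1 to 12 when any 1 of the 6 compared libraries was left out. With a prior variance that follows the level, chosen after seeing the data, they became 100. The deviations of same-numbered libraries from their group means correlated at -0.0569 to 0.0419. These levels show no pairing by replicate number, but they cannot tell whether libraries were processed in pairs. With the replicate number as a block the counts were 4483 against untreated, 1704 against MCC950 and 2 for length. Of 194 genes that the rule names, 166 kept direction and call in all 16 alternatives. With TPM, Eef1a1 turned to 0.0045 and Cxcr5, called at 0.62, to -0.0332, and Cxcr5 also lost its call in 10 other alternatives. Depth limits the low genes most: of 5 equal bins of genes by level, the least abundant had 15.4% past the threshold and the most abundant 60.7%.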

Other observations

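A run of neighbouring genes near the end of the X chromosome, picked out after its values were seen, rose together. Mid1, a ubiquitin ligase gene of the microtubules (chromosome X, 169685199 to 170005736 in mm10, + strand), stood at 23.8, 23.4 and 20.98 CPM in untreated, 77.6, 80.1 and 80.8 CPM in antibody and 52.5, 56.3 and 54.1 CPM in MCC950 libraries. G530011O06Rik (169975043 to 169978917, - strand), a noncoding gene annotated inside it on the other strand, stood at 0.670, 0.643 and 0.576, 144, 136 and 162 and 76.4, 72.6 and 77.7 CPM, with no overlap between any of the 3 groups. The antisense genes Gm15726 (169979047 to 169985232) and Gm15247 (169985801 to 169986939) beside it had mean levels of 16.7 and 1.33 CPM with the antibody, against 0.0989 CPM and 0 in untreated cells. Gm21887 (170009659 to 170019281) went from 17.7, 6.63 and 14.9 to 47.3, 40.6 and 46.1 CPM. The next genes inward did not rise: Hccs (169250193 to 169320372) had a log2 fold change of -0.32 and Msl3 of -0.05, the latter without passing.

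Gm47283, on the Y chromosome (90784738 to 90816464), rose as well, from 52.7, 69.8 and 56.2 to 220.4, 214 and 205 CPM. It stood at 120.4, 83.8 and 104 CPM with MCC950. Sharing of reads between Gm47283 and the genes at the X end was not tested, so its rise is not counted as a separate observation. All 9 libraries had Y-linked transcripts, with Ddx3y between 173 and 217 CPM, and at most 7 counts of Xist. The Y-linked gene Kdm5d stood at 94.1, 90.8 and 93.6 and 123, 116 and 124 CPM.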
